A study of Homo sapiens with 4 samples.

Results

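The promoters of the nuclear genes named for mitochondrial complex I were examined for H3K27ac, the acetylation of lysine 27 of histone H3 that marks active promoters and enhancers. All protein-coding genes of chromosomes 1 to 22 whose symbol begins with NDUFA, NDUFB, NDUFC, NDUFS, NDUFV or NDUFAF were taken, which gave 46 genes of 19111. The rule uses symbols and positions, not peak values. Of these, 7 encode catalytic core subunits, 28 accessory subunits and 8 assembly factors. The other 3 carry such a symbol but are not subunits of the complex: NDUFA4 is now assigned to complex IV, NDUFA4L2 is its hypoxia-induced paralog, and NDUFC2-KCTD14 is a read-through gene that starts beside NDUFC2.

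H3K27ac was profiled by chromatin immunoprecipitation and sequencing (ChIP-seq) in MDA-MB-231 and Hs578T, established lines of triple-negative breast cancer, with 2 libraries per line. The cells of all 4 libraries had, by their labels, passed through 8 h of starvation, 48 h with the cytokine TWEAK at 10 ng/ml and a washout of 72 h, although the study's own text describes a longer washout. No untreated or continuously treated cells entered the comparison, so neither TWEAK nor its removal can be assessed. Each library has a list of peaks, the regions called as enriched over input DNA. The 4 lists differed widely in size, with 318 peaks in MDA-MB-231 replicate 1, 43421 in MDA-MB-231 replicate 2, 46363 in Hs578T replicate 1 and 44952 in Hs578T replicate 2. These last 3 are called the large lists below, and values given in threes follow that order. In each of the large lists, all 3 mesenchymal genes checked (VIM, CD44, AXL) had a promoter peak and none of the 4 luminal and epithelial genes (ESR1, GATA3, FOXA1, ESRP1) did, while the small list marked none of the 7. The lists hold no read counts, so the depth of the libraries is unknown.

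Complex I, NADH:ubiquinone oxidoreductase, is the largest enzyme of the respiratory chain. It passes electrons from NADH through a flavin and a row of iron-sulfur clusters to ubiquinone and couples this to proton pumping across the inner mitochondrial membrane. The core subunits carry the flavin, the clusters and the quinone site, the accessory subunits surround and stabilise them, and the assembly factors join the modules without staying in the finished enzyme. The membrane core is encoded by mitochondrial DNA and was not considered here. Nuclear respiratory genes are expressed in nearly all tissues, often from CpG-rich promoters that lack a TATA box.

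Nearly every complex I promoter was marked in the large lists. A promoter, here the region within 1 kb of the start of the Ensembl canonical transcript, was counted as marked if a peak overlapped it by at least 1 bp. Of the 46 genes, MDA-MB-231 replicate 2 marked 45 (97.8%, 95% Wilson interval 88.7 to 99.6), Hs578T replicate 1 also 45 (97.8%, 88.7 to 99.6) and Hs578T replicate 2 marked 43 (93.5%, 82.5 to 97.8). Over all 19111 coding genes the shares were 58.8%, 59.0% and 57.1%. The same 43 genes were marked in all 3 large lists, against 56.4% of all coding genes. MDA-MB-231 replicate 1 marked none of the 46, but it marked only 8 of all coding promoters (0.0419%), so it holds next to no information on these genes. The mean was 44 ± 1.41 marked genes (SD, n = 2 lists) in Hs578T and 22.5 ± 31.8 (SD, n = 2) in MDA-MB-231, where the spread was that between 0 and 45. The lines were not tested against each other, since the smallest two-sided p that an exact permutation of 2 lists against 2 allows is 0.333.

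Complex I promoters were also marked more often than coding promoters among the strongest peaks. When only the 50% of each list with the smallest p-values was kept, 39, 36 and 34 complex I genes were marked (84.8%, 78.3% and 73.9%). The shares of all coding genes were 45.7%, 46.6% and 42.9%. Both groups lost genes. Of the marked complex I genes, 39 of 45, 36 of 45 and 34 of 43 were kept. For marked coding genes these counts were 8731 of 11246, 8899 of 11272 and 8198 of 10919. The gap was thus largely the one already present in the complete lists. In the complete lists, each large list had 42 complex I genes with a peak over the start site itself, though not the same genes each time. These were 93.3%, 93.3% and 97.7% of those marked, beside 91.0%, 91.2% and 88.4% of marked coding genes.

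Only 3 genes lacked a promoter peak in any large list. NDUFA4L2, on chromosome 12 with its start at 57237104, had none in any of the 4 lists. The nearest peaks to its start lay 5549, 5273 and 5653 bp away in the large lists, with widths of 2892, 3163 and 2806 bp. Its promoter was also the poorest in CpG of the 46, with an observed to expected CpG ratio of 0.194 against a median of 0.849. The other two, NDUFV1 and NDUFB7, were unmarked only in Hs578T replicate 2.

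NDUFV1, on chromosome 11 at 67606936, encodes the core subunit that binds NADH and the flavin. In MDA-MB-231 replicate 2 its peak measured 310 bp at a fold enrichment of 4.69, and in Hs578T replicate 1 it measured 409 bp at 3.76, missing the start site by 61 and 54 bp. Fold enrichment is the signal of a peak over the local background of its own library, and the layout of the lists is that of the broad mode of MACS2, which averages this value over the whole peak. In Hs578T replicate 2 the nearest peak was 6926 bp away. NDUFB7, an accessory subunit with twin cysteine motifs on chromosome 19 at 14572066, showed the same pattern, with a peak of 413 bp and 4.31-fold in MDA-MB-231 replicate 2, one of 278 bp and 3.57-fold in Hs578T replicate 1, and none within 14975 bp in Hs578T replicate 2. Both genes thus had short and weak peaks where they were marked, and the 2 Hs578T lists disagreed on them.

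Marked complex I promoters carried narrower peaks than marked coding promoters at large. For each gene the peak covering most of its window was taken. The median width over complex I genes was 1496, 1469 and 1399 bp, and over all marked coding genes 1798, 1901 and 1805 bp. In Hs578T the mean of the medians was 1434 ± 49.5 bp (SD, n = 2 lists) for complex I and 1853 ± 67.9 bp for all coding genes, a gap larger than the spread between the lists. Of the marked complex I genes, 32, 31 and 33 fell below the median width of all marked coding promoters, and 6 in each list lay above its upper quartile.

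Fold enrichment was lower as well. The complex I medians were 7.74, 6.83 and 6.03, beside 9.20, 8.12 and 6.85 over all marked coding promoters of the same lists. The mean of the 2 Hs578T medians was 6.43 ± 0.569 for complex I and 7.48 ± 0.894 for all coding genes (SD, n = 2). These SDs include the difference in scale between the libraries, so they do not measure the spread of the gap. The gap had the same direction within each large list. Since fold enrichment is relative to each library, only percentiles are set side by side between lists. The median complex I gene stood at the percentiles 38.9, 38.7 and 40.8 of fold enrichment and at the percentiles 37.4, 33.3 and 34.3 of width.

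**Figure D1:**
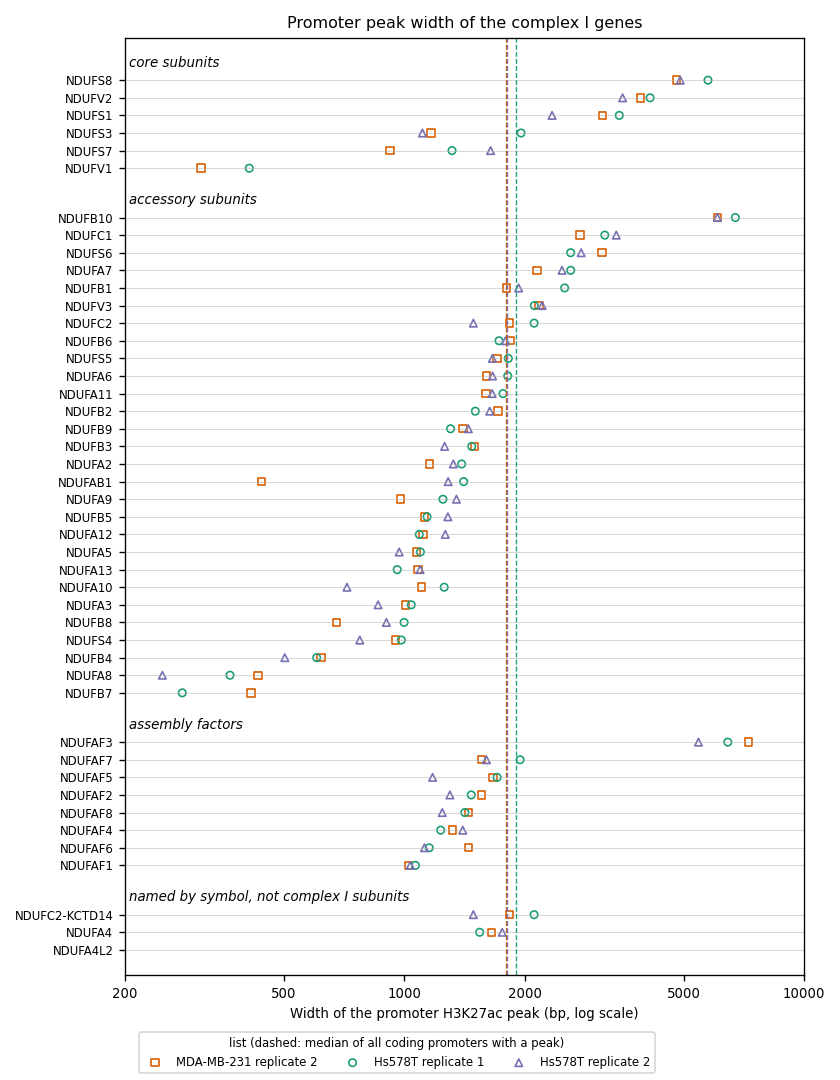
Width in bp (log scale) of the promoter H3K27ac peak of the complex I genes described here in the 3 large lists (1 point per list), grouped by role and ordered by mean width in Hs578T, with the median of all marked coding promoters of each list as a dashed line. Most points lie left of the dashed lines at 1798, 1901 and 1805 bp, with NDUFB10, NDUFAF3, NDUFS8 and NDUFV2 far to the right, and NDUFA4L2 has no point.

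The core subunits varied widely in peak width. NDUFS8, an iron-sulfur subunit on chromosome 11 (start 68030681), had peaks of 4785, 5744 and 4896 bp with fold enrichments of 14.5, 12.5 and 11.2. It was among the 4 widest and the 4 highest-ranking complex I genes alike. NDUFV2, which holds an iron-sulfur cluster beside the flavin, had peaks of 3899, 4115 and 3513 bp at 11.3-fold, 9.82-fold and 8.77-fold. NDUFS1, the large iron-sulfur subunit that receives the electrons next, had 3128, 3446 and 2340 bp at 10.5-fold, 12.6-fold and 9.70-fold. These 3 genes stood above the median of marked coding promoters in both measures in every large list.

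NDUFS3 and NDUFS7 did not. NDUFS3, which lies between the quinone site and the upper arm, had peaks of 1165, 1957 and 1109 bp at 7.05-fold, 5.61-fold and 6.03-fold. NDUFS7, which carries the last cluster before ubiquinone, had 920, 1315 and 1642 bp at 10.5-fold, 8.29-fold and 5.43-fold, so its width and its fold enrichment went opposite ways over the lists. With NDUFV1 at the bottom, the core medians were 1630, 1957 and 1991 bp (7, 7 and 6 marked genes).

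Among the accessory subunits the median width was 1277, 1398 and 1349 bp. NDUFB10, of the membrane arm, had by far the widest peak of this group at 6066, 6725 and 6064 bp, yet its fold enrichment was ordinary at 8.70, 7.18 and 5.75. That peak also covered the start of RPS2, a gene of the small ribosomal subunit, and ran downstream of the NDUFB10 start, beginning 41 bp past it in MDA-MB-231 replicate 2 and 120 bp past it in Hs578T replicate 2. Only in Hs578T replicate 1 did it cover the NDUFB10 start, by 413 bp upstream and 6311 bp downstream. The width recorded for NDUFB10 is therefore shared with its neighbour.

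The narrowest promoter peaks marked in both Hs578T lists were also at accessory genes. NDUFA8, another twin cysteine protein, had peaks of 430, 366 and 248 bp at 3.71-fold, 5.25-fold and 4.37-fold, and only the last reached its start site. NDUFB4 had 619, 603 and 502 bp at 7.25-fold, 7.77-fold and 6.44-fold. NDUFS4, a subunit whose loss is a known cause of Leigh syndrome, had 949, 982 and 773 bp at 7.14-fold, 7.80-fold and 7.97-fold, and NDUFB8 had 676, 998 and 901 bp at 4.60-fold, 4.20-fold and 4.23-fold. Narrow peaks were thus not always weak ones, since NDUFS4 stood at percentile 60.7 of fold enrichment and 11.2 of width in Hs578T replicate 2.

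NDUFA11 and NDUFB1, both of the membrane arm, had the highest fold enrichments of the accessory genes by rank. NDUFA11 reached 19.7, 16.2 and 11.9 with peaks of only 1600, 1764 and 1657 bp. NDUFB1 reached 13.6, 14.8 and 12.3 with peaks of 1801, 2516 and 1930 bp. At the other end, NDUFA3 had 3.75, 4.11 and 3.72 with 1005, 1040 and 859 bp, and NDUFA10, which resembles a nucleoside kinase, had 4.74, 4.55 and 3.77 with 1104, 1257 and 718 bp.

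NDUFC2 shared 1 peak with the read-through gene NDUFC2-KCTD14 that starts beside it, so these are not independent values. The peak measured 1831, 2110 and 1487 bp at 5.97-fold, 3.81-fold and 4.34-fold, among the lowest by rank in Hs578T. NDUFAB1, the mitochondrial acyl carrier protein, differed in width between the lists, with 439 bp in MDA-MB-231 replicate 2 against 1406 and 1286 bp in Hs578T. Its fold enrichment went the other way, from percentile 38.9 in MDA-MB-231 replicate 2 to 15.8 and 20.9 in Hs578T. With 1 large list from MDA-MB-231, a difference of lines cannot be told apart from one of libraries. The remaining accessory genes (NDUFA2, NDUFA5, NDUFA6, NDUFA7, NDUFA9, NDUFA12, NDUFA13, NDUFB2, NDUFB3, NDUFB5, NDUFB6, NDUFB9, NDUFC1, NDUFS5, NDUFS6 and NDUFV3) were marked in all 3 large lists, with widths between 959 and 3387 bp.

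All 8 assembly factors were marked in each large list, with median widths of 1504, 1442.5 and 1271 bp. NDUFAF3, which acts with NDUFAF4 on the quinone module, had peaks of 7258, 6439 and 5438 bp at 17.2-fold, 12.2-fold and 9.68-fold, the widest complex I promoter peak of MDA-MB-231 replicate 2. It reached 5773, 4540 and 4562 bp upstream and also covered the start of DALRD3. NDUFAF1, a partner of ECSIT, ACAD9 and TMEM126B in the assembly of the membrane arm, was at the low end with 6.50, 4.45 and 3.85 in peaks of 1022, 1065 and 1034 bp. NDUFAF2, a paralog of NDUFA12, the arginine hydroxylase NDUFAF5, the arginine methyltransferase NDUFAF7, and NDUFAF4, NDUFAF6 and NDUFAF8 had widths between 1122 and 1947 bp.

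NDUFA4, which by function belongs to complex IV, had the highest mean percentile of fold enrichment of all 46 genes over the Hs578T lists. Its peaks showed 15.1-fold, 16.8-fold and 13.7-fold at widths of 1651, 1542 and 1756 bp, narrower than the median marked coding promoter in each list. A strong but compact peak was thus seen at NDUFA4 and NDUFA11, and a wide peak of middling fold enrichment at NDUFB10.

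**Figure D2:**
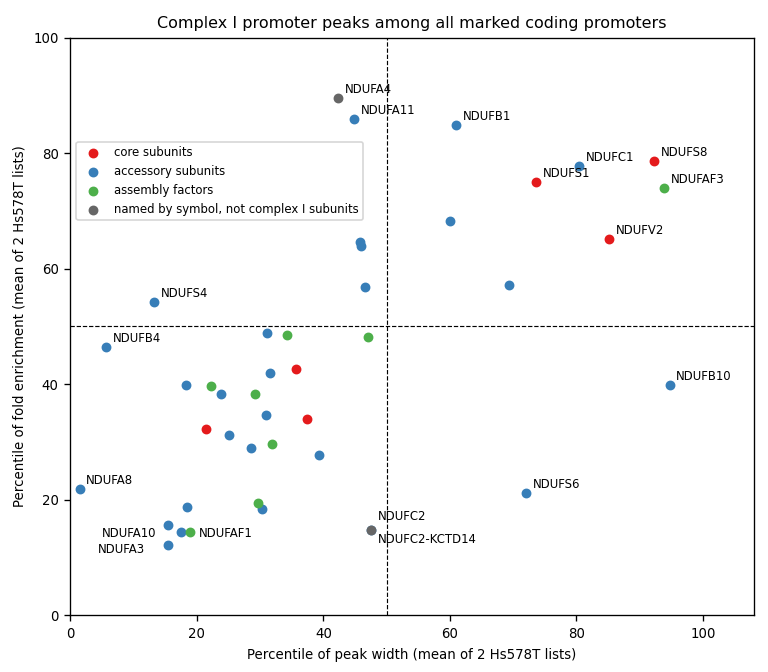
Percentile of peak width (x axis) and of fold enrichment (y axis) of each complex I gene marked in both Hs578T lists, ranked among all marked coding promoters of a list and averaged over the 2 lists. Most genes fall at the lower left, NDUFS8, NDUFAF3, NDUFV2, NDUFC1 and NDUFS1 are among those at the upper right, and NDUFA4 and NDUFA11 high in fold enrichment but below percentile 50 (dashed lines) in width.

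The order of the genes was similar between lists. Spearman's rho across complex I genes was 0.91 for width and 0.87 for fold enrichment between MDA-MB-231 replicate 2 and Hs578T replicate 1 (45 genes), 0.84 and 0.80 between MDA-MB-231 replicate 2 and Hs578T replicate 2 (43 genes), and 0.88 and 0.92 between the Hs578T replicates (43 genes). Over all coding genes marked in both lists of a pair, rho lay between 0.91 and 0.92 for width and between 0.91 and 0.96 for fold enrichment. These are correlations across genes, which are not independent replicates, and the lists share the sequence and mappability of each promoter.

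Complex I peaks extended less on both sides of the start. Where the peak covered the start site (42 genes in each large list), the median reach upstream was 677.5, 771 and 700 bp and downstream 701.5, 700 and 628.5 bp. For all such coding genes it was 830, 866 and 850 bp upstream and 929, 969 and 930 bp downstream. The downstream side was the longer one for 22, 18 and 21 of the 42 complex I genes, beside 56.8%, 56.5% and 55.3% of coding genes. Within 50 kb of a marked complex I start, a median of 2 further peaks was found in each list, against 3 for marked coding genes, and the median length covered was 2958, 3196 and 3043 bp against 3872, 4315 and 3964 bp.

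**Figure D3:**
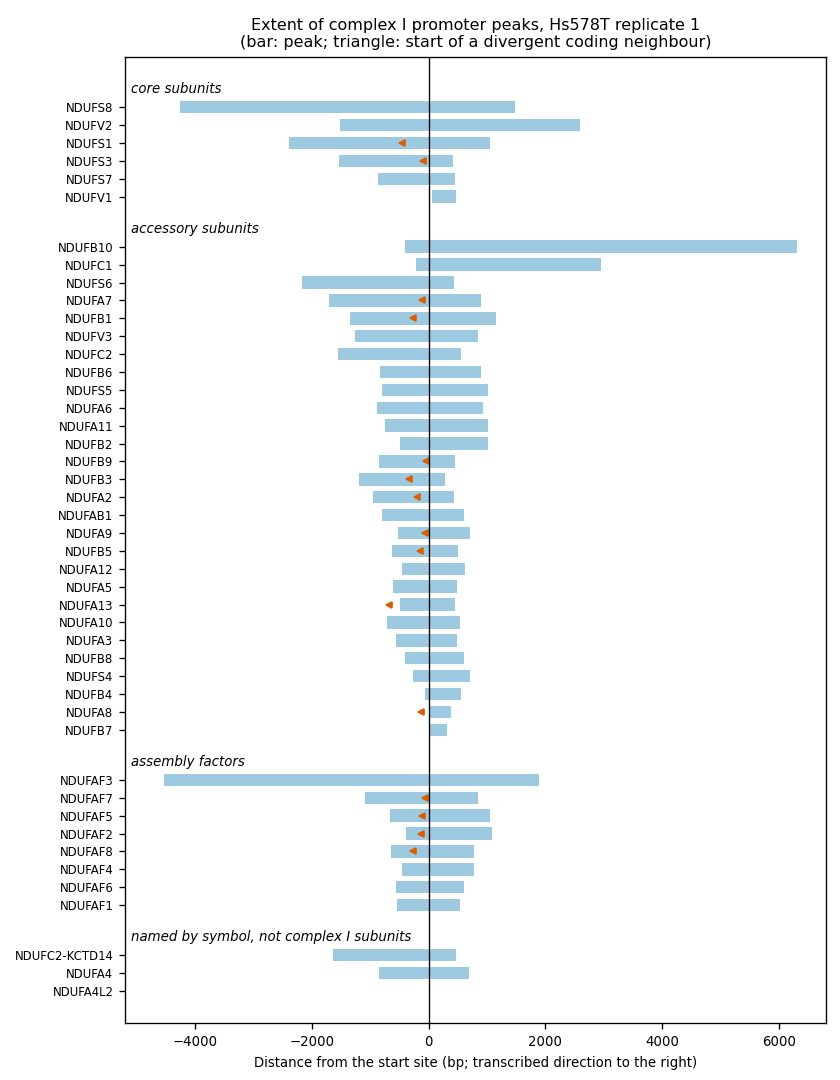
Extent of the promoter peak (bar) of the complex I genes described here in Hs578T replicate 1, in bp from the start site with the direction of transcription to the right, and the start of a divergent coding neighbour where there is one (triangle). Bars are mostly short and lie on both sides of 0, those of NDUFAF3 and NDUFS8 reach 4540 and 4259 bp upstream, that of NDUFB10 reaches 6311 bp downstream, and those of NDUFV1, NDUFA8 and NDUFB7 do not reach 0.

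Many complex I genes share their promoter with another gene. A divergent neighbour was defined as a coding gene on the opposite strand whose canonical start lies upstream within 1 kb, so that both genes are read away from a common stretch. By the annotation alone, 15 of the 46 complex I genes have one (32.6%, 95% Wilson interval 20.9 to 47.0), against 1842 of 19111 coding genes (9.64%, 9.23 to 10.1). Divergent genes are marked more often in general (94.4%, 94.2% and 93.2% of coding genes with such a neighbour, 55.1%, 55.2% and 53.3% of those without), so marked genes are the closer reference. There the shares were 15 of 43 (34.9%, 22.4 to 49.8) for complex I genes and 1714 of 10774 (15.9%, 15.2 to 16.6) for coding genes marked in all 3 large lists. All Wilson intervals given here cover counting error only. The median distance between the starts was 135 bp (range 38 to 677) for complex I and 233 bp for all divergent coding genes. By role, 2 core, 9 accessory and 4 assembly genes are of this kind.

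**Figure D4:**
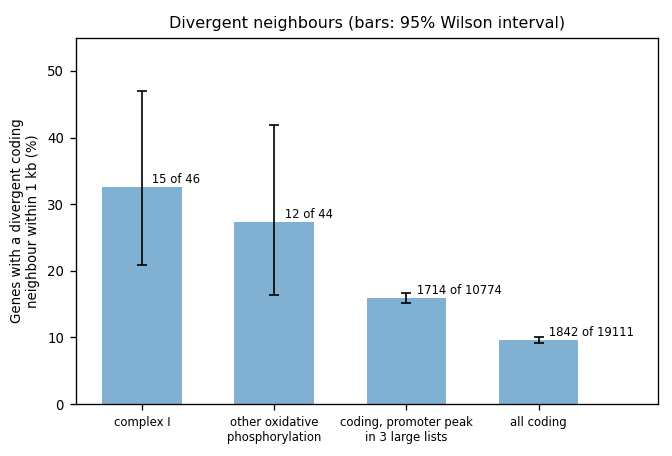
Share of genes (y axis, %) with a divergent coding neighbour within 1 kb for complex I genes, the other oxidative phosphorylation genes, coding genes marked in all 3 large lists and all coding genes, with 95% Wilson intervals as error bars. The bars stand at 32.6%, 27.3%, 15.9% and 9.64%, and the intervals of the first pair of groups overlap each other.

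All 15 divergent complex I genes were marked in the 3 large lists, and in each of those lists a single peak marked both genes of every pair. At these distances that is nearly fixed by the window, and it held for 99.8% of the 1714 divergent coding genes marked in the same lists. The partners belong to varied pathways. Some serve protein synthesis: NDUFA7 lies 121 bp from RPS28 of the small ribosomal subunit, NDUFB5 lies 156 bp from MRPL47 of the mitochondrial ribosome, NDUFAF5 lies 109 bp from the nucleolar factor ESF1, and NDUFS1 lies 451 bp from the elongation factor subunit EEF1B2. Others act in RNA processing or DNA repair, namely IK (199 bp from NDUFA2), CPSF2 (263 bp from NDUFB1) and ERCC8 (135 bp from NDUFAF2). The partners AKAP3 (63 bp from NDUFA9) and TSSK6 (677 bp from NDUFA13) are best known from sperm. The remaining pairs were NDUFAF7 with CEBPZ (62 bp), NDUFS3 with KBTBD4 (104 bp), NDUFA8 with MORN5 (129 bp), NDUFAF8 with TEPSIN (263 bp), NDUFB3 with HYCC2 (330 bp), and NDUFB9 with TATDN1, the closest at 38 bp.

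The peak covered both starts in each of the 3 large lists for 13 of the 15 pairs (86.7%), beside 92.1% of those coding genes. The exceptions were NDUFA8 with MORN5 and NDUFA13 with TSSK6. At NDUFA13 the peak covered the NDUFA13 start but reached only 557, 499 and 469 bp upstream, short of TSSK6. A peak over a shared stretch does not tell which of the genes is transcribed.

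The stretch between the starts is shown for 5 of the pairs, read 5′ to 3′ on the strand of the complex I gene and taken from hg38. Each stretch thus begins beside the start of the neighbour and ends beside the start of the complex I gene, whatever the order of names in its label. They were chosen to show the shortest printable stretch (NDUFAF7), that of the narrowest peak (NDUFA8), and 3 with different motif matches (NDUFA7, NDUFAF2, NDUFB5). Capitals mark matches, on either strand, to the motifs spelled out after the sequences.
NDUFAF7 to CEBPZ, chr2:37231597-37231657 (+ strand): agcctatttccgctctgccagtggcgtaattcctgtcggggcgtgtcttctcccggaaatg
NDUFA8 to MORN5, chr9:122159780-122159907 (- strand): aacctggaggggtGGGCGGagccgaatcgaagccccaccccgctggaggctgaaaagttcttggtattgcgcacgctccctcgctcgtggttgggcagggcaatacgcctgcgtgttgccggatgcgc
NDUFA7 to RPS28, chr19:8321376-8321495 (- strand): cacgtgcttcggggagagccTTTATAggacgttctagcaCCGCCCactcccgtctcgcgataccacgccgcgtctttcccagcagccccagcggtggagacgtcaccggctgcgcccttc
NDUFAF2 to ERCC8, chr5:60945071-60945204 (+ strand): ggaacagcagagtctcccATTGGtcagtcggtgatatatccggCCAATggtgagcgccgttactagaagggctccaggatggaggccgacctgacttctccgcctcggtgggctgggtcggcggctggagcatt
NDUFB5 to MRPL47, chr3:179604639-179604793 (+ strand): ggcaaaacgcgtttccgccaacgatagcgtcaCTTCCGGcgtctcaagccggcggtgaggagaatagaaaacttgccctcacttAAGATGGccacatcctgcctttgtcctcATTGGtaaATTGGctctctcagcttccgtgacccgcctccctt

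The NDUFAF7 stretch of 61 bases held no match at all, and that of NDUFA8 (128 bases) a single SP/KLF match. In the NDUFA7 stretch of 120 bases an SP/KLF match stood beside a TATA match on the reverse strand, which lay towards the RPS28 end. The NDUFAF2 stretch of 134 bases held an NFY match on each strand, and the NDUFB5 stretch of 155 bases an ETS, a YY1 and 2 NFY matches. A match describes the letters only and was not tested for binding of a factor, and the absence of a match concerns these windows alone.

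Peak width was also compared between complex I genes with and without a divergent neighbour. The median width was 1447 bp with and 1602 bp without a divergent neighbour in MDA-MB-231 replicate 2, 1469 and 1455 bp in Hs578T replicate 1, and 1299 and 1560.5 bp in Hs578T replicate 2. The sign of the difference thus changed between the Hs578T replicates, and no direction is given. It was negative in all 3 large lists with the strongest 50% of peaks (-179.5, -255 and -332 bp), with peaks over the start site (-130.5, -52 and -188 bp) and with any basic start site (-170, -54 and -339 bp). In Hs578T replicate 1 it was 108.5 bp without NDUFA4, NDUFA4L2 and NDUFC2-KCTD14. There it stayed at 14 bp under the remaining settings. Over all marked coding genes the divergent ones had the wider peaks, with 1876 against 1777 bp, 2032 against 1869 bp, and 1869 against 1777 bp.

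Counting any other coding start under the peak, whatever its strand, 22 complex I peaks covered one in each large list (48.9%, 48.9% and 51.2% of those marked), beside 23.2%, 23.4% and 23.1% of marked coding promoters. This includes NDUFC2 and NDUFC2-KCTD14, which count for each other, and read-through genes annotated over the same start. Complex I peaks with another start had median widths of 1580, 1855.5 and 1466 bp, and those without 1114, 1238 and 1286 bp. Over all marked coding genes the same split had the same direction, with 2061.5 against 1712 bp, 2205 against 1795 bp, and 2054.5 against 1699 bp. This split is made by the extent of the peak itself, and a wider peak reaches another start more easily. The direction is thus partly built in, and no conclusion on width is drawn from it. A further 5 genes without a divergent coding partner have a divergent gene of another type, among them NDUFA6 with NDUFA6-DT at 159 bp and NDUFV1 with NDUFV1-DT at 230 bp. That is 10.9% of the 46, close to the 10.4% of all coding genes.

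Sequence features were compared over the 300 bases from 250 before to 50 after each start. The letters searched, on both strands, were GCGCANGCG for NRF1, CCGGAAG for the ETS family, AAGATGG for YY1, GGGCGG for the SP/KLF family, CCAAT for NFY, TATAAA for the TATA box, AAGGTCA for the estrogen-related receptors (ERR), TGACGTCA for CREB and TGANTCA for AP-1, and no one of these contains another. NRF1, the ETS protein GABP, YY1 and ERR alpha are known regulators of nuclear respiratory genes.

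The letters of YY1, NRF1 and ERR occurred at higher shares in complex I promoters than in either reference group. Those of YY1 were found in 12 of the 46 (26.1%, 95% Wilson interval 15.6 to 40.3), against 6.34% of all coding promoters and 8.34% of those marked in the 3 large lists. They lay only after the start in 9 of the 12, beside 48.1% of the 1212 coding promoters with a match. The NRF1 letters were found in 11 complex I promoters (23.9%, 13.9 to 37.9), against 11.0% of all and 16.3% of marked coding promoters, and the ERR letters in 4 (8.70%, 3.43 to 20.3), against 2.95% and 2.33%. The interval for NRF1 contains the share of marked promoters, and those for YY1 and ERR do not contain theirs. Within only the 100 bases before the start, YY1 and ERR letters were each left in 1 complex I promoter (2.17%, 0.385 to 11.3), and these intervals contain the shares of marked promoters, 1.18% and 0.650%. These intervals describe 46 genes picked by name and are not a test.

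Of the other motifs, ETS, SP/KLF and NFY letters were at lower shares than in marked coding promoters, but the complex I intervals contain those shares. ETS letters were found in 9 complex I promoters (19.6%, 10.7 to 33.2), against 14.2% of all and 21.98% of marked coding promoters. SP/KLF letters were found in 30 (65.2%, 50.8 to 77.3), against 61.7% and 75.5%. CCAAT was found in 11 (23.9%, 13.9 to 37.9), against 35.7% and 36.7%. The TATA letters occurred in 3 promoters, NDUFA2, NDUFA7 and NDUFA9 (6.52% against 9.74% and 4.94%), all of them divergent. CREB letters occurred in NDUFA10 and NDUFB2 and AP-1 letters in NDUFB3 and NDUFS6, 2 promoters each (4.35%), with 2.72% and 3.75% for CREB and 5.37% and 3.95% for AP-1 in the reference groups. Complex I promoters had a median GC content of 61.0%, against 63.7% for all and 66.3% for marked coding promoters, and a median CpG ratio of 0.849 against 0.780 and 0.868.

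**Figure D5:**
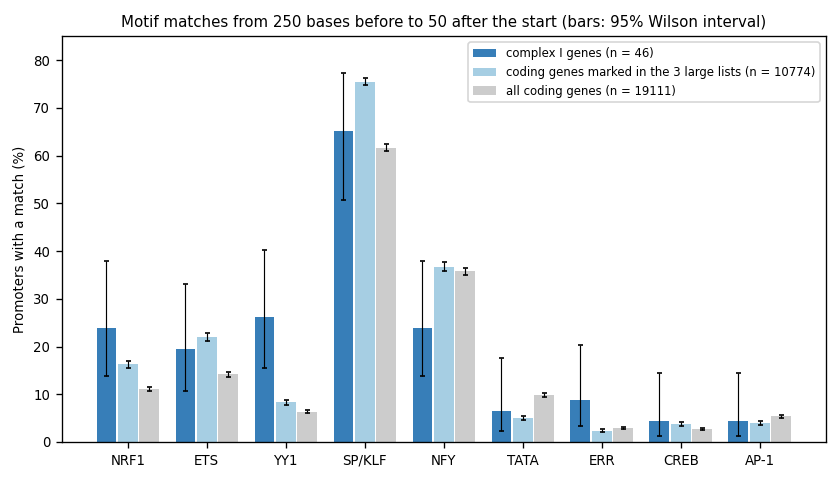
Share of promoters (y axis, %) with a match to each motif (x axis) from 250 bases before to 50 after the start, for complex I genes (n = 46), coding genes marked in the 3 large lists (n = 10774) and all coding genes (n = 19111), with 95% Wilson intervals as error bars. YY1 stands at 26.1% in complex I promoters, above 8.34% and 6.34% in the other groups. The ETS, SP/KLF, NFY, TATA, CREB and AP-1 intervals of complex I contain the shares of both.

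In the complete lists, a chosen set of other genes of oxidative phosphorylation was marked as fully. The set leaves out 5 tissue-restricted isoforms of complex IV, none of which was marked, whereas the naming rule keeps NDUFA4L2. The shares of the 2 groups are therefore not like for like. Of 44 nuclear genes of these pathways outside the naming rule (7 further complex I assembly factors, complex II with 4 genes, complex III with 9, complex IV with 9 and complex V with 15), all 44 were marked in each large list and none in MDA-MB-231 replicate 1. Their median widths were 1447.5, 1582.5 and 1471.5 bp and their median fold enrichments 7.93, 6.99 and 5.39, so the narrow peaks were not particular to complex I. With only the strongest 50% of each list, 30, 34 and 31 of the 44 were marked, beside 39, 36 and 34 of the 46 complex I genes. A divergent coding neighbour was present for 12 of the 44 (27.3%, 16.3 to 41.8). Between the complexes, median width was lowest for complex IV in MDA-MB-231 replicate 2 (1132 bp) and for complex III in Hs578T replicate 2 (1154 bp). Complex V had the highest median width of the 4 in every large list (1698, 1684 and 1743 bp).

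The X chromosome subunits NDUFA1 and NDUFB11, left out by the rule on chromosomes, were marked in the 3 large lists too. NDUFA1 had peaks of 2817, 3270 and 3848 bp and NDUFB11 peaks of 1652, 1455 and 1842 bp. By contrast, none of the 5 tissue-restricted complex IV isoforms (COX4I2, COX6A2, COX6B2, COX7A1, COX8C), which are expressed in lung, muscle or testis, had a promoter peak in any list, like NDUFA4L2. Of 8 regulators of these genes, NRF1, GABPA, GABPB1, YY1, ESRRA, TFAM and PPARGC1A were marked in each large list and PPARGC1B in none. GABPB1, the beta chain of GABP, had fold enrichments of 32.1, 27.03 and 20.4, whereas the coactivator gene PPARGC1A had 3.78, 2.87 and 2.90. GABPA and ATP5PF, which encodes a subunit of ATP synthase, are a divergent pair 68 bp apart under 1 peak of 1968, 2207 and 1885 bp.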

How the data were processed

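H3K27ac ChIP-seq libraries of MDA-MB-231 and Hs578T (2 each, grouped by title) were analysed from the lists the authors deposited. Per the study's methods, the authors used Trimmomatic for adaptors, Bowtie2 for alignment (hg38), MACS2 for peaks of each library over input, and bedtools to drop blacklisted regions. Versions and MACS2 settings are not given in the sources used here. The deposited columns hold start and end, a score (10 times the −log10 q-value), a fold enrichment (a ratio) and −log10 p and q values. The 9 columns are those of MACS2 broad output, so broad mode is inferred. Being relative to each library, fold enrichment was ranked within lists only, and its means over the Hs578T lists are descriptive. No 2 peaks of a list lie closer than 803 bp, so nearby regions may have been joined by the caller, which affects widths.

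Promoters were taken from GENCODE release 44 (GRCh38), with 1 peak per gene: that covering most of the window, or the higher fold enrichment in a tie. Wilson intervals, medians and Spearman's rho were computed with Python 3.11.15, numpy 2.4.6 and scipy 1.17.1, and the scripts were tested on simulated lists. The lines were not tested against each other. The members and gene lists were chosen with earlier results of these data known. Every gene but 1, which is counted but not reported here, is named, and full values are given for the core subunits, genes unmarked in a large list, and the 4 widest, narrowest, highest and lowest by mean Hs578T percentile. NDUFAB1 and the X chromosome, regulator and GABPA values were added after they were seen. Alternatives tried were stricter peaks, other windows, starts and motif windows, and each list left out.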

Additional observations from a re-analysis of the deposited data

How the results depend on the processing

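Of 181 recomputed values over 24 results, 164 stayed within their tolerance and 17 moved. The tolerance was the SD between the lists of a line (for MDA-MB-231, where only replicate 2 gives widths, that of Hs578T), a factor of 1.5 for counts, and the Wilson interval for shares. A change of sign of the width difference also counted as moved. Apart from that, some values could not move. Leaving out either Hs578T list shifts a mean by less than the SD between them. MDA-MB-231 replicate 1 supplied no widths, and joining peaks altered no list. The tally is therefore not a measure of robustness. The MDA-MB-231 counts rested on which list was used: without replicate 1 or without replicate 2, the marked complex I genes ranged from 0 to 45 (mean of both 22.5) and the other oxidative phosphorylation genes from 0 to 44. Without replicate 2, MDA-MB-231 has no widths or fold enrichments. With the strongest 50% of each list, the median complex I width became 1600 bp in MDA-MB-231 and 1505 bp in Hs578T, the Hs578T fold enrichment 7.09, the upstream reach in MDA-MB-231 735 bp and the downstream reach in Hs578T 740 bp. With any basic start site in place of the canonical one, the MDA-MB-231 width became 1560 bp, its upstream reach 761.5 bp and the Hs578T downstream reach 743.25 bp. Without NDUFA4, NDUFA4L2 and NDUFC2-KCTD14, the Hs578T width was 1382.5 bp. In every one of these the complex I width stayed below that of all coding promoters under the same setting. The width difference with against without a divergent neighbour was -123.75 bp over the Hs578T lists and ranged from -261.5 (without replicate 1) to 14 bp (without replicate 2). Within 100 bases before the start only, the complex I shares with a match fell to 2.17% for YY1, 39.1% for SP/KLF and 2.17% for ERR, beside 0.952%, 45.7% and 0.910% of all coding promoters. The divergent share lay between 30.4% and 45.7% over other distances, starts and gene types, and the share of coding genes changed too. At 500 bp, 30.4% of complex I genes stood against 7.96% of coding genes. With any basic start site it was 45.7% against 13.003%, and with a neighbour of any gene type 43.5% against 20.004%. The margin over coding genes thus depended on the definition. Joining peaks within 500 bp changed nothing, as no gap is that short. No paired analysis was possible because the result comes from no test and a replicate number does not pair the lines.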
